A study of Mus musculus with 2 samples.

Results

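Solute carriers are the membrane proteins that move sugars, lactate, amino acids, metals, ions, vitamins and nucleotides across the plasma membrane and into organelles, without spending ATP directly. The non-control probes of the array whose gene name in the files begins with Slc and a number, or with Slco, were taken, leaving out Slc40a1 and Slc4a1. They were 326 of 15208 probes and stood for 248 of 11142 genes, in 43 families. The name also takes in genes that are no carriers, since Slc9a3r1 and Slc9a3r2 are scaffold proteins and Slc4a1ap is an adaptor protein; these carry nothing themselves and were kept apart under other. Of the 248 genes, 223 had a probe well above background on at least 1 array and were compared. The other 25, among them the neuronal and sperm glucose carrier Slc2a3, the choline carrier Slc5a7 and the intestinal glucose carrier Slc5a1, were not well above background on either array.

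The RNA came from Sertoli cells (so labelled) isolated from the testis of male Swiss mice aged 3 months, with no culture step. One preparation came from mice given busulphan, an alkylating drug, at 25 mg/kg 1 month earlier, and the other from mice with no treatment. After collagenase and hyaluronidase digestion, the cells that stayed on a fine strainer were collected, and the labels do not give how many mice a preparation pools. Cy3-labelled RNA of each preparation was hybridised to 1 array, so each group is a single sample (n = 1), the differences have no replicate to be checked against, and no test was run.

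Sertoli cells line the seminiferous tubule and seal off the compartment in which meiotic and haploid germ cells develop, so these germ cells depend on what Sertoli cells transport to them. The best known example is energy supply, in which Sertoli cells take up glucose, turn it to lactate and export it for germ cells to use. Germ cells in turn express carriers of their own, several of which are known mainly from the testis.

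The identity of the preparations bears on every value below. Among 11 markers of Sertoli cells, 10 stood at least 2-fold higher in busulphan, with a summed signal of 117924 in busulphan and 12499 in control. All 7 spermatid markers were lower, with summed signals of 34816 in busulphan and 406766 in control, where 6 of the 7 spots were saturated. Of 7 spermatocyte markers 5 were lower (28491 in busulphan, 167230 in control), of 8 macrophage markers 6 were higher (5720 in busulphan, 1102 in control), and of 5 spermatogonial markers 2 were higher and 1 lower (4714 in busulphan, 3962 in control). Summed signals were 59108 in busulphan and 51450 in control for 5 peritubular myoid markers (1 higher). For 4 Leydig cell markers they were 2750 in busulphan and 1026 in control. Only Star of these was higher (2043 in busulphan, 202 in control), and the others lay within 2-fold. Summed signals were 2401 in busulphan and 3229 in control for 5 endothelial markers (1 higher, 2 lower). For 3 red cell markers they were 2480 in busulphan and 1751 in control. Only Alas2 of these was higher (1754 in busulphan, 345 in control), and the globin genes had log2 ratios of -0.77 and -0.73. Every marker compared, of any list, was well above background on both arrays. The control label of isolated Sertoli cells thus stood beside saturated spermatid spots. In RNA of many cells, fewer cells of a type and less RNA per cell cannot be told apart, and the part of the cell mixture in the values of the carriers was not tested.

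Signals are the processed intensities of the scanner software, in arbitrary units. A fold compares them after each array was divided by the 75th percentile of its own probes, a signal of 905 in busulphan and 1046 in control, and a level is the log2 of the signal so divided. A gene was called higher or lower at a log2 ratio of busulphan over control of at least 1 either way, a rule of size. The software's own error on the log2 ratio of a member had a median of 0.21. A gene was read by its brightest probe. Where a spot was not well above background or was saturated on 1 array, only a bound is known and the fold is written as at least so much, which holds for this background correction only. Another correction, normexp with an offset, shrinks the ratios of low signals, and its value is given where it moves a named ratio strongly or ends a call. Levels of different genes come from different probes and are not set against each other.

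Over all members the solute carriers lay close to the array as a whole, with large differences in both directions. Of the 223 genes, 78 (34.98%) were at least 2-fold higher in busulphan, where 31.3% of all 9438 genes compared were, and 63 (28.3%) were at least 2-fold lower, where 29.5% of all genes were. The median log2 ratio was 0.16 over members and 0.07 over all genes. At 16-fold, 4 members were higher (1.32% of all genes were) and 14 were lower (5.46% of all genes were), which is 1.79% and 6.28% of the members. In this setting the shares are near the background. With normexp 64 members (28.7%) were higher and 38 (17.0%) lower, where 24.6% and 22.7% of all genes were. Scaling to spike-in controls, RNAs added in known amounts, gave 49 members higher (21.97%) and 96 lower (43.05%). Of all genes, 16.16% were higher and 46.4% lower in this scaling, so most genes called on the array were lower there too. The higher members made up 33.8% of those called, against 55.3% in the main scaling. Spike-in scaling moved the median of all genes to -0.81, so directions of groups near 0 depend on the scaling.

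**Figure D1:**
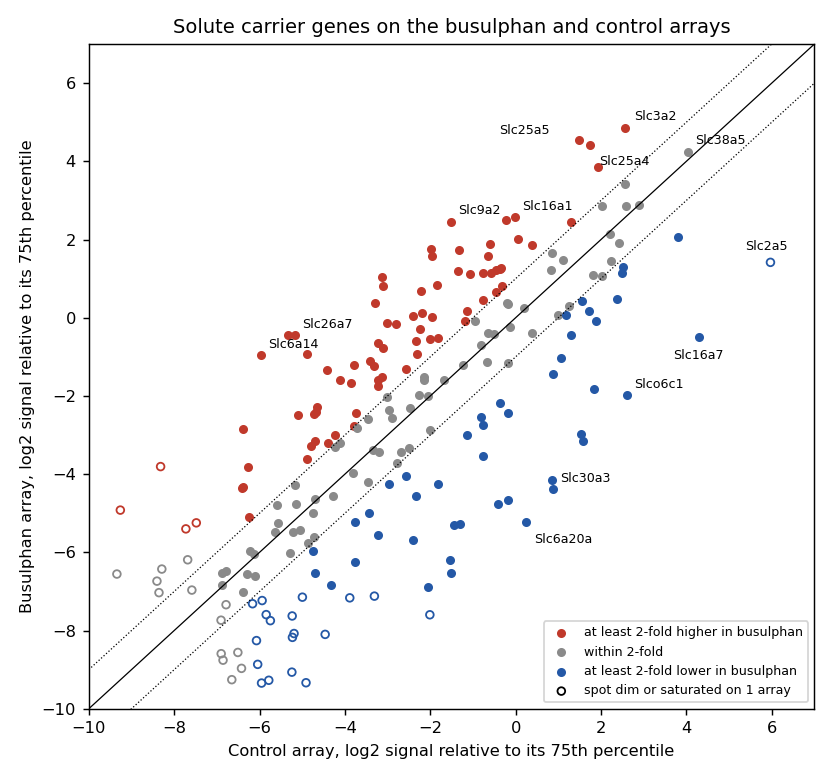
Level of each of the 223 solute carrier genes on the busulphan array (vertical axis) and the control array (horizontal axis), both as log2 signal over that array's 75th percentile; the solid line marks equal levels, the dotted lines 2-fold, and open points spots that were dim or saturated on 1 array. Red marks the 78 genes at least 2-fold higher in busulphan and blue the 63 at least 2-fold lower, with Slc2a5 and Slc16a7 far below the line and Slc25a5, Slc25a4 and Slc3a2 above it.

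Dim spots were unevenly placed. Of the members, 25 (11.2%) were well above background in control only and 10 (4.48%) in busulphan only, against 6.19% and 3.64% of all genes. One member, Slc2a5, was saturated in control. Member probes were well above background in 76.1% (busulphan) and 81.0% (control) of cases, and all probes in 79.3% (busulphan) and 80.9% (control).

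The starting regions of genes that gave some of the largest or best measured differences are shown first. They are RefSeq windows (GRCm38.p6) from 250 bases before to 50 bases after the start of the gene, and 195 members matched such a window. Capitals mark matches to the GC box GGGCGG on either strand, a site that transcription factors of the Sp family are known to bind, and a match is a description of letters only. The first 3 genes, the lactate carrier Slc16a1, the ADP/ATP carrier Slc25a5 and the glucose carrier Slc2a1, were higher in busulphan, and the last 3, the fructose carrier Slc2a5, the sperm sodium/proton exchanger Slc9a10 and the testis carrier Slco6c1, were lower. Slco6c1 held no match.
Slc16a1, chr3:104638414-104638713, plus strand: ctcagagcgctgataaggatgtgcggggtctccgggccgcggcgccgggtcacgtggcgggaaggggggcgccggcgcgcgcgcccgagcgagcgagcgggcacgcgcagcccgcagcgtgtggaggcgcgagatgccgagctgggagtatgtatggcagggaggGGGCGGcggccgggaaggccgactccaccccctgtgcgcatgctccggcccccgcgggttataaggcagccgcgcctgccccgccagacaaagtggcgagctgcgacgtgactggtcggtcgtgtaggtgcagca
Slc25a5, chrX:36795347-36795646, plus strand: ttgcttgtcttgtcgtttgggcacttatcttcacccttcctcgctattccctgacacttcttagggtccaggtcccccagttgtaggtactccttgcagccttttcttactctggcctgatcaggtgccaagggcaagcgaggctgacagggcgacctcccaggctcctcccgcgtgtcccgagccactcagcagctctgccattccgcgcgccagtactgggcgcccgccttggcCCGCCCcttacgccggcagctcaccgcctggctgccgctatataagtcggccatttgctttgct
Slc2a1, chr4:119108495-119108794, plus strand: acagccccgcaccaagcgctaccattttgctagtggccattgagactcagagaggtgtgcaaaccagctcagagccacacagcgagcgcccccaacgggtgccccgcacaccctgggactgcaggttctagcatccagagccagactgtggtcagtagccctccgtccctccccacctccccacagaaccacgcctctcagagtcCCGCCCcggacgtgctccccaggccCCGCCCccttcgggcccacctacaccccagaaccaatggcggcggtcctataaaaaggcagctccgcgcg
Slc2a5, chr4:150119094-150119393, plus strand: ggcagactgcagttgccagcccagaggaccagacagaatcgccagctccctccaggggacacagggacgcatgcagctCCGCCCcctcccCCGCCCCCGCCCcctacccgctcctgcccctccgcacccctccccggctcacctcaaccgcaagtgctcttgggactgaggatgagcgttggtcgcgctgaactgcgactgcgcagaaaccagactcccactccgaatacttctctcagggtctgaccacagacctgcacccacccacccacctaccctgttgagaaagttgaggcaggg
Slc9a10, chr16:45535016-45535315, plus strand: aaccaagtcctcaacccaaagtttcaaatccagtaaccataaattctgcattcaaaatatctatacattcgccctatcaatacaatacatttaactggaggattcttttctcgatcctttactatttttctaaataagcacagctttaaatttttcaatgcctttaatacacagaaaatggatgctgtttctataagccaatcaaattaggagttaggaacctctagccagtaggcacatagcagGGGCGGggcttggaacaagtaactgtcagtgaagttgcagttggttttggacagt
Slco6c1, chr1:97128254-97128553, minus strand: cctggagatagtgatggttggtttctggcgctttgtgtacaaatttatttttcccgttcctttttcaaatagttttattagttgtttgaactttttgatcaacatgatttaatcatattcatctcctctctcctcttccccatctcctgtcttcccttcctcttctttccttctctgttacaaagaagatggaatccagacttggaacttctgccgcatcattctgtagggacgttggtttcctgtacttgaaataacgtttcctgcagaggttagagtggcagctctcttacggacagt

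Some genes have several windows, and a gene was counted if any of them held a match. A GC box stood in the windows of 44 of 60 higher members (73.3%), 30 of 49 lower members (61.2%), 43 of 68 within 2-fold (63.2%) and 7 of 18 not compared (38.9%). It stood in 55.0% of 8120 genes of the array with a window and in 38.2% of all 27025 genes with one. Its shares among all higher and all lower genes of the array were not counted. The cAMP response element TGACGTCA, read by CREM in spermatids among others, was found in none of the 49 lower members, in 1 of 60 higher ones and in 2 of 68 within 2-fold, against 2.77% of array genes. The members with it were Slc18a2, Slc25a25 and Slc25a36. An antioxidant-like element, TGACNNNGC, was found in 12 higher (20.0%), 7 lower (14.3%) and 14 members within 2-fold (20.6%), against 15.96% of array genes. Both of these elements begin with TGAC but cannot match at the same start on the same strand.

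Carriers of monocarboxylates, through which lactate and pyruvate pass, split by member. All 7 genes were compared, and 4 were at least 2-fold higher in busulphan and 1 lower, at a median log2 ratio of 1.38. With spike-in scaling 2 were higher and 3 lower, at a median of 0.49. Slc16a1, the widespread lactate and pyruvate carrier, had signals of 5392 in busulphan and 1038 in control, higher by 2.59 on the log2 scale (software error 0.20), and its other probes gave log2 ratios of 2.12 and 2.68. Slc16a7, a high-affinity carrier of the same acids, had signals of 639 in busulphan and 20486 in control, 27.7-fold lower (log2 -4.79, error 0.20). These carriers of the same acids thus lay on opposite sides.
Slc16a3, known as the exporter of lactate from glycolytic cells, had signals of 476 in busulphan and 212 in control, 2.60-fold higher, and was at 0.49 on the log2 scale with spike-in scaling. Slc16a6 was 3.22-fold higher (2127 in busulphan, 762 in control), and at 0.81 on the log2 scale with spike-in scaling. Slc16a8, known from the retinal pigment epithelium, and the aromatic amino acid carrier Slc16a10 gave low signals on both arrays, with log2 ratios of -0.90 and -0.27. The probe of Slc16a1 lies at chr3:104460941-104461000 and that of Slc16a7 at chr10:124664784-124664843 of mouse build mm9, as the files place them.

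Genes on either side of these carriers were looked up from a list. Basigin (Bsg), the partner that brings Slc16a1 to the cell surface, had signals of 712 in busulphan and 4515 in control, 5.49-fold lower, opposite to Slc16a1. Lactate dehydrogenase genes split as well, Ldhb at least 10.3-fold higher (65641 in busulphan, saturated, and 7354 in control), and Ldha at least 5.26-fold and the testis form Ldhc at least 2.71-fold lower, both saturated in control. Mpc1, a subunit of the mitochondrial pyruvate carrier, had signals of 2854 in busulphan and 2783 in control and lay within 2-fold.

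Sugar carriers had as many members higher as lower, 6 and 6 of 15 compared, with a median of 0.09. With spike-in scaling 4 were higher and 7 lower (median -0.57), and with normexp 5 and 3. Slc2a5, the fructose carrier, was saturated in control at 65535 and had 2415 in busulphan, at least 23.5-fold lower. Its probe lies at chr4:149517775-149517834 (mm9). Slc2a1, the main glucose carrier of most cells, had 3655 in busulphan and 1087 in control, 3.89-fold higher, and stayed past 2-fold under each of the 11 other processing settings. So a widespread glucose carrier and the fructose carrier lay on opposite sides.
Slc2a8, an intracellular glucose carrier abundant in testis, had 849 in busulphan and 3864 in control, 3.94-fold lower, with its other probe at a log2 ratio of -2.80. Slc2a12 was 5.94-fold (390 in busulphan, 75.9 in control), the lysosomal member Slc2a6 6.19-fold (162 in busulphan, 30.3 in control), Slc2a10 2.92-fold and the insulin-responsive Slc2a4 2.47-fold higher. With spike-in scaling Slc2a10 (0.66) and Slc2a4 (0.42) lay within 2-fold, Slc2a10 also with normexp (0.92), and with normexp Slc2a6 was at 1.48 and Slc2a12 at 1.91. Slc5a3, which takes up the osmolyte myo-inositol, was 4.53-fold higher, at 285 in busulphan and 72.8 in control (log2 1.59 with normexp). In the Slc2 family 5 of 9 genes compared were higher and 3 lower. The lower members included Slc5a4b, of the sodium-glucose cotransporter family, at 35.9 in busulphan and 917 in control (22.1-fold; log2 -3.20 with normexp), and Slc45a2, known from pigment cells, at 4.99-fold (-0.88 with normexp). Slc5a4a, the near copy of Slc5a4b, lay within 2-fold at a log2 ratio of 0.31, and the probes of the pair shared at most 21 of 60 bases in an ungapped alignment. Slc2a2, the carrier of liver and beta cells, was 5.67-fold lower at 7.93 in busulphan and 52.0 in control, and at -0.53 with normexp background correction.

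**Figure D2:**
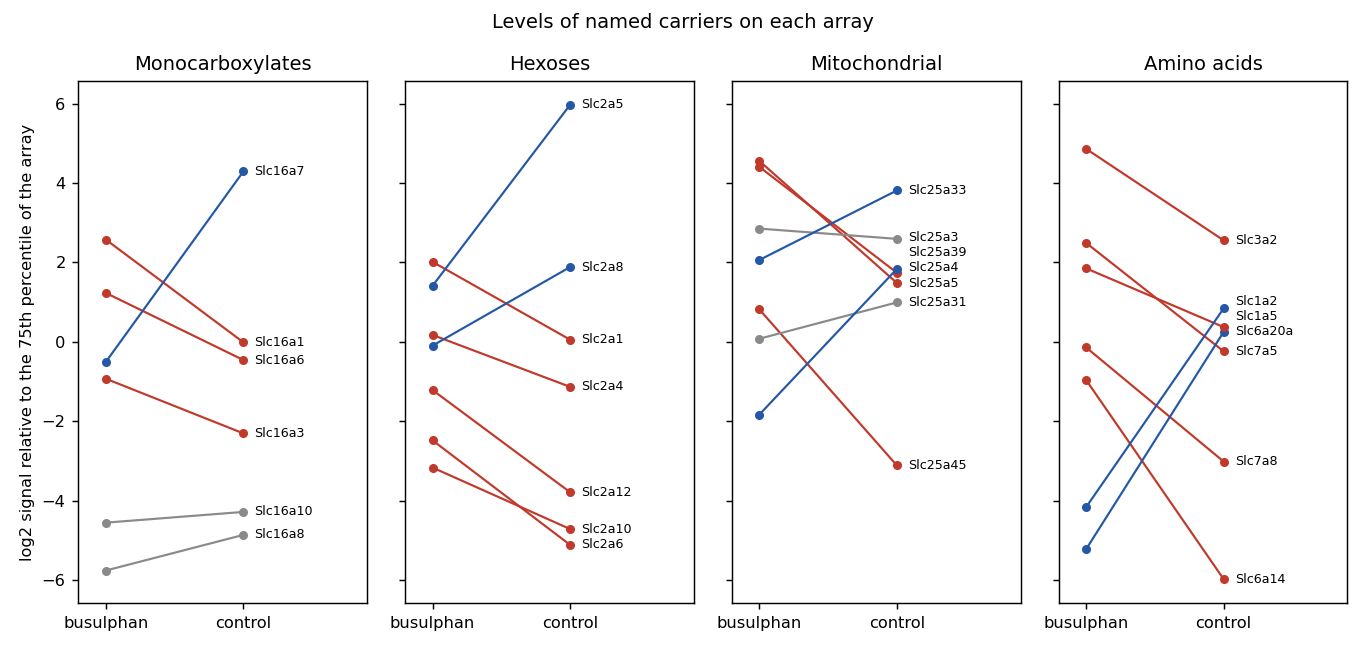
Levels of named carriers on the busulphan (left in each panel) and control (right) arrays, as log2 signal over the array's 75th percentile, with a panel for monocarboxylate, hexose, mitochondrial and amino acid carriers; each line joins 1 gene, red for at least 2-fold higher in busulphan, blue for at least 2-fold lower, grey for within 2-fold. Every panel holds lines of both slopes: Slc16a7, Slc2a5, Slc25a39 and Slc1a2 are lower in busulphan while Slc16a1, Slc2a1, Slc25a5 and Slc3a2 are higher.

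Mitochondrial carriers of the Slc25 family, which pass nucleotides and metabolites over the inner membrane, were all compared (27 genes), with 10 higher and 7 lower at a median of 0.31. With spike-in scaling 4 were higher and 9 lower, at a median of -0.57. The ADP/ATP carriers, which hand ATP to the cytosol, differed by isoform. Slc25a5 had signals of 21272 in busulphan and 2923 in control, 8.41-fold higher (log2 3.07, error 0.20), and Slc25a4 had 19184 in busulphan and 3491 in control, 6.35-fold higher, with its other probe at 2.73. Slc25a31, the ADP/ATP carrier known from male germ cells, had 957 in busulphan and 2084 in control, a log2 ratio of -0.91, which was within 2-fold and became -1.80 with spike-in scaling.
The probes of Slc25a4 and Slc25a5 are not fully separate. The Slc25a4 probe read here matches 45 of 60 bases of the Slc25a5 probe with a run of 17. The values of both probes are therefore uncertain, and Slc25a5 has no other probe. The other Slc25a4 probe, at 2.73, shares a run of only 5. The files place the probe of Slc25a5 at chrX:34338475-34338534 and that of Slc25a31 at chr3:40528804-40528863 (mm9).
Other members with large differences were Slc25a39, linked to glutathione import, at 255 in busulphan and 3740 in control (12.7-fold lower), and Slc25a24, an exchanger of ATP-magnesium and phosphate, at 23.4 in busulphan and 424 in control (15.7-fold lower; log2 -2.30 with normexp). Slc25a45 was 15.2-fold higher, at 1596 in busulphan and 121 in control. Slc25a33, a pyrimidine nucleotide carrier, had 3781 in busulphan and 14699 in control, 3.36-fold lower. Carriers of the carnitine shuttle (Slc25a20, 3.51-fold), of iron (Slc25a28, 2.32-fold) and of dicarboxylates (Slc25a10, 2.15-fold) were also lower, the last pair within 2-fold with quantile normalization.
The aspartate-glutamate carriers Slc25a13 (5.91-fold; 574 in busulphan, 112 in control) and Slc25a12 (2.14-fold) were higher, as were Slc25a14 at 3.05-fold and the citrate carrier Slc25a1 at 2.20-fold. With spike-in scaling Slc25a12 (0.21), Slc25a14 (0.73) and Slc25a1 (0.26) lay within 2-fold, Slc25a12 and Slc25a1 also with median scaling. The phosphate carrier Slc25a3, at 6535 in busulphan and 6316 in control, and the oxoglutarate carrier Slc25a11, at 2530 in busulphan and 2265 in control, had log2 ratios of 0.26 and 0.37.

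Amino acid and peptide carriers had the widest range of the 12 role groups, -5.47 to 5.01, and equal numbers on both sides, 14 higher and 14 lower of 42 (median -0.06). With normexp background correction the counts were 12 higher and 4 lower, and with spike-in scaling 12 and 21. Slc3a2, the heavy chain that carries a set of Slc7 light chains to the surface, had 26279 in busulphan and 6153 in control, 4.94-fold higher, with its other probe at a log2 ratio of 1.34. Of its light chains, the carriers of large neutral amino acids Slc7a5 (5093 in busulphan, 887 in control) and Slc7a8 (822 in busulphan, 130 in control) were 6.63-fold and 7.33-fold higher. Other light chains did not go with them, Slc7a7 having 1107 in busulphan and 2484 in control (log2 -0.96) and Slc7a10 being at least 2.15-fold lower, a call lost with normexp (-0.06).
Slc7a11, the light chain for cystine uptake, was at least 9.97-fold higher at 64.7 in busulphan and a spot not well above background in control (log2 1.21 with normexp). The other probes of Slc7a11, measured on both arrays, gave log2 ratios of -0.86 and 1.71, so the probes of this gene lay on both sides of 0. Slc7a4 was 13.5-fold higher, at 3081 in busulphan and 263 in control, and the cationic amino acid carriers Slc7a1 and Slc7a2 were 4.11-fold and 4.20-fold higher at signals below 50 on both arrays, and within 2-fold with normexp (0.80 and 0.79). Slc3a1 and Slc7a9, which pair as the cystine carrier of the kidney, had log2 ratios of -1.84 and -0.90, with Slc3a1 at -0.34 with normexp. In the Slc7 family 6 of 10 compared were higher and 2 lower. With normexp the higher calls of Slc7a1 and Slc7a2 and the lower calls of Slc7a10 and Slc7a3 (-0.91) were lost.
Glutamine and neutral amino acid carriers were Slc1a5, at 3267 in busulphan and 1355 in control (2.79-fold higher; 0.60 on the log2 scale with spike-in scaling), Slc1a4 at 4.84-fold (log2 1.37 with normexp) and Slc38a1 at 3.06-fold higher. Slc38a1 lay within 2-fold with spike-in scaling (0.73) and with the median over its probes. Slc38a5, of the same function, had 17215 in busulphan and 17156 in control, a log2 ratio of 0.21. Of the glutamate carriers, Slc1a2, the main glutamate carrier of astrocytes, had 50.7 in busulphan and 1878 in control, 32.1-fold lower (15.99-fold with normexp), and a second probe gave a log2 ratio of -5.15, while Slc1a3 was 2.46-fold lower, within 2-fold with normexp (-0.64).

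The Slc6 family, sodium-coupled carriers of transmitters, amino acids and osmolytes, held the extremes of the whole set. Slc6a14, which carries neutral and cationic amino acids, had 466 in busulphan and 16.7 in control, 32.3-fold higher. Slc6a4, the serotonin carrier, had 670 in busulphan and 26.2 in control, 29.6-fold higher. At the other end Slc6a20a, an imino acid carrier, had 24.3 in busulphan and 1246 in control, 44.3-fold lower, the lowest ratio of all members. Each gave a low signal on 1 array, and with normexp their log2 ratios shrank to 3.07, 3.28 and -3.81.
Slc6a8, the creatine carrier, was 8.44-fold higher at 3026 in busulphan and 414 in control. Slc6a7 (proline) was 9.70-fold, Slc6a12 (betaine and GABA) 5.51-fold, Slc6a13 (GABA) at least 9.70-fold and Slc6a20b at least 6.56-fold lower, with Slc6a12, Slc6a13 and Slc6a20b within 2-fold with normexp and Slc6a7 at -1.62 there. Slc6a6, the taurine carrier, had 3429 in busulphan and 5647 in control, a log2 ratio of -0.51, and its other probe gave -2.13. In all, 3 of 14 Slc6 genes were higher and 7 lower. The probes of Slc6a20a and Slc6a20b shared at most 22 of 60 bases in an ungapped alignment.

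Metal carriers had 10 higher and 4 lower of 20, at a median of 1.04. With spike-in scaling 7 were higher and 8 lower, at a median of 0.16, and with normexp the median was 0.77. Copper carriers were both higher, Slc31a1, the copper importer of the plasma membrane, at 932 in busulphan and 197 in control (5.47-fold) and Slc31a2 at 2081 in busulphan and 408 in control (5.89-fold). Slc41a2, a magnesium carrier, had 1876 in busulphan and 120 in control, a log2 ratio of 4.17. The iron and manganese carrier Slc11a2 was 2.47-fold higher by its brightest probe, and its other probes gave log2 ratios of 1.70 and 4.58. Slc11a1, its counterpart in macrophage phagosomes, was 2.37-fold higher at 114 in busulphan and 55.4 in control. Of 8 macrophage markers 6 were higher, and a link between them and Slc11a1 was not tested. Both Slc11 genes lay within 2-fold with spike-in scaling, and Slc11a1 also with normexp.
Zinc carriers split within each family. Slc30a3, which fills synaptic vesicles with zinc, had 43.4 in busulphan and 1916 in control, 38.2-fold lower (log2 -4.14 with normexp), with its probe at chr5:31390388-31390447 (mm9). The exporters Slc30a4, at 1462 in busulphan and 227 in control, and Slc30a7 were 7.46-fold and 4.23-fold higher. Of the importers, Slc39a8 (78.7 in busulphan, 611 in control), the intestinal Slc39a4 (166 in busulphan, 921 in control) and Slc39a3 (444 in busulphan, 2201 in control) were 6.72-fold (log2 -2.15 with normexp), 4.81-fold and 4.29-fold lower, while Slc39a1 (2013 in busulphan, 612 in control) and the zinc channel of the secretory pathway Slc39a7 (13116 in busulphan, 4011 in control) were 3.80-fold and 3.78-fold higher. Slc39a6 had 6621 in busulphan and 7759 in control, a log2 ratio of -0.02.

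Carriers of inorganic ions numbered 43, of which 15 were higher and 14 lower, at a median of 0.07. With spike-in scaling 10 were higher and 18 lower (median -0.81, as over all genes), and with normexp 11 and 8. Sodium/proton exchangers lay at both ends. Slc9a10, now named Slc9c1 and needed for sperm motility in mice, had 101 in busulphan and 3101 in control, 26.6-fold lower (log2 -4.73). Slc9a2, a plasma membrane exchanger of epithelia, had 4969 in busulphan and 368 in control, 15.6-fold higher. Of the 8 Slc9 exchangers, 4 were lower and 1 higher. The lower ones included Slc9a3 and Slc9a4, not well above background in busulphan and within 2-fold with normexp (-0.31 and -0.30).
Relatives named by other symbols in the files, and so not members, were found by accession. Slc9b1, named Nhedc1 there, had 1560 in busulphan and 35205 in control, and Slc9b2, named Nhedc2, had 13.9 in busulphan and 18.2 in control.
Anion and phosphate carriers also lay at both ends. Slc26a7, a chloride and bicarbonate carrier, had 663 in busulphan and 29.1 in control, 26.3-fold higher, with normexp at 3.29 on the log2 scale. Slc13a5, the citrate carrier, had 7.65 in busulphan and 251 in control, 28.4-fold lower (log2 -2.00 with normexp), and the phosphate carrier Slc34a2 had 33.1 in busulphan and 790 in control, 20.6-fold lower, with a second probe at -4.46 (8.02-fold lower with normexp for the first). The other phosphate carriers Slc20a1 (4950 in busulphan, 2587 in control) and Slc20a2 (421 in busulphan, 98.1 in control) were 2.21-fold and 4.96-fold higher, the first within 2-fold with spike-in or median scaling.
Of the genes named Slc24 in the files, 3 of 3 compared were higher. Slc24 is a family of sodium/calcium-potassium exchangers, but Slc24a6 is now named Slc8b1, outside this family. Only Slc24a3, at 2699 in busulphan and 268 in control (11.6-fold), kept its call under all 11 other settings. Slc24a2, at least 4.61-fold higher, was at 0.68 with normexp. Slc24a6, at a log2 ratio of 1.01, lay within 2-fold with normexp (0.69), with spike-in scaling (0.13) and with median or quantile scaling. The bicarbonate exchangers Slc4a2 and Slc4a3 were 4.56-fold and 6.33-fold higher. Slc4a8 was 5.01-fold lower by its brightest probe, with others at log2 ratios of -1.83 and 1.93, the only member whose probes stood past 2-fold on opposite sides. Of the chloride cotransporters, Slc12a9, Slc12a7 and the sodium-potassium-chloride carrier Slc12a2 were 8.56-fold, 4.65-fold and 3.36-fold higher, the last within 2-fold with spike-in scaling (0.87), and Slc12a9 at 2.20 with normexp. Slc12a8, Slc12a5 and Slc12a3 were lower, Slc12a3 within 2-fold with normexp (-0.13).

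Of 23 carriers of organic ions and bile acids compared, 4 were higher and 8 lower, and 4 of these were at least 16-fold lower. The median was 0.01. With spike-in scaling 2 were higher and 11 lower (median -0.88), and with normexp 3 and 7. The spike-in values lie near those of all genes, of which 46.4% were lower at a median of -0.81. Slco6c1, an organic anion carrier known from the testis, had 228 in busulphan and 6364 in control, 24.1-fold lower, with its probe at chr1:98962621-98962680 (mm9). Slc22a18 had 115 in busulphan and 3011 in control, 22.8-fold lower, and the organic anion carrier Slc22a7 had 12.5 in busulphan and 362 in control, 25.1-fold lower (log2 -2.46 with normexp). Slc10a2, the bile acid carrier of the ileum, was not well above background in busulphan and had 260 in control, at least 35.9-fold lower, though only 4.32-fold lower with normexp.
Carnitine, which shuttles fatty acids into mitochondria, is taken up by members of the Slc22 family, and these did not read alike. Slc22a4, also a carrier of ergothioneine, had 473 in busulphan and 35.5 in control, 15.4-fold higher (log2 2.72 with normexp), and Slc22a21, a carnitine carrier of mice, had 1266 in busulphan and 5404 in control, 3.69-fold lower. Slc22a5, the main carnitine carrier, was 2.91-fold lower by its brightest probe (1025 in busulphan, 3441 in control; log2 -1.54), while its other probe had 1533 in busulphan and 1162 in control, a log2 ratio of 0.61. The brightest Slc22a5 probe, at chr11:53679058-53679117 (mm9), shares a run of 33 bases with the Slc22a21 probe at chr11:53764508-53764567, and the other Slc22a5 probe shares a run of only 7. The first 30 bases of that run are shown because they limit what can be read for this pair, and the capitals mark the shared bases.
Slc22a5 and Slc22a21 shared stretch: TGAGTCTCTTGAACAAGCAGGACTTGGAAG
The values of Slc22a5 and of Slc22a21, which has no other probe, are therefore uncertain, and with the median over its probes Slc22a5 was within 2-fold. Slco1a5 was 11.8-fold higher at 127 in busulphan and 12.4 in control (log2 1.55 with normexp) and Slco1a6 was lower at 6.51, not well above background, in busulphan and 106 in control (log2 -1.17 with normexp). Slco3a1 had 9735 in busulphan and 6187 in control, within 2-fold. Slc22a3, the extraneuronal monoamine carrier, had 9.75 in busulphan and 8.93 in control, a log2 ratio of 0.34.

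Carriers that load the Golgi and endoplasmic reticulum with nucleotide sugars and sugar phosphates held 11 genes, of which 5 were higher and none lower, at a median of 0.97. With spike-in scaling 3 were higher and 1 lower, at a median of 0.09. Slc35c1, the GDP-fucose carrier, had 3327 in busulphan and 693 in control, 5.55-fold higher. Slc37a3 (977 in busulphan, 228 in control), the glucose 6-phosphate carrier Slc37a4 (745 in busulphan, 223 in control), the CMP-sialic acid carrier Slc35a1 (317 in busulphan, 119 in control) and the sulfate donor carrier Slc35b3 (2168 in busulphan, 822 in control) were 4.96-fold, 3.86-fold, 3.07-fold and 3.05-fold higher, the last pair within 2-fold with spike-in scaling (0.74 and 0.73). The remaining members, among them Slc35b1, Slc35b4 and Slc37a2, lay within 2-fold at log2 ratios between -0.92 and 0.97. Fatty acid carriers had 3 of 5 higher and none lower (1 and 1 with spike-in scaling), Slc27a3 at 6.21-fold (811 in busulphan, 151 in control), Slc27a1 at 3.29-fold (1996 in busulphan, 701 in control) and Slc27a5 at least 3.68-fold. Slc27a1 and Slc27a5 lay within 2-fold with spike-in scaling, Slc27a5 also with normexp, and Slc27a2 and Slc27a4 had log2 ratios of -0.17 and 0.89.

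Nucleoside, vitamin and choline carriers numbered 15, of which 5 were higher and 3 lower, at a median of 0.16 (2 and 6 at a median of -0.08 with spike-in scaling). Slc46a1, the proton-coupled folate carrier, had 1168 in busulphan and 107 in control, 12.6-fold higher (8.06-fold with normexp), and the reduced folate carrier Slc19a1 was 2.74-fold higher with its other probe at 0.17, and within 2-fold with spike-in scaling (0.57). The vitamin C carriers differed, Slc23a2 at 2.86-fold higher (93.7 in busulphan, 37.9 in control) and Slc23a1 at 2.34-fold lower (14.5 in busulphan, 39.3 in control), both within 2-fold with normexp (0.86 and -0.26) and Slc23a2 also with spike-in scaling (0.63), and the related Slc23a3 was 4.80-fold higher (log2 1.39 with normexp). Slc29a3, the lysosomal nucleoside carrier, had 23.1 in busulphan and 382 in control, 14.3-fold lower (log2 -2.20 with normexp), whereas the main nucleoside carrier Slc29a1 was at 6595 in busulphan and 4266 in control, a log2 ratio of 0.84. The thiamine carrier Slc19a2 had 2858 in busulphan and 1889 in control, also within 2-fold.
Of 10 vesicle and lysosome carriers 2 were higher and 4 lower, at a median of -0.75. With normexp 1 was higher and 1 lower, and with spike-in scaling 2 were higher and 8 lower. Slc17a6, which fills synaptic vesicles with glutamate, had 9.83 in busulphan and 369 in control, 32.4-fold lower (log2 -2.51 with normexp), and its relatives Slc17a3, Slc17a7 and Slc17a8 were lower at control signals below 100. The sialic acid exporter of the lysosome Slc17a5, at 186 in busulphan and 41.3 in control, and the vesicular monoamine carrier Slc18a1, at 64.7 in busulphan and 13.6 in control, were 5.20-fold and 5.52-fold higher. With normexp, Slc17a3, Slc17a7, Slc17a8 and Slc18a1 lay within 2-fold, and Slc17a5 was at 1.57.
Of the 5 genes under other, the urea carrier Slc14a2 was 3.31-fold lower (154 in busulphan, 592 in control) and Slc4a1ap 2.17-fold lower, the second within 2-fold with quantile normalization or with the 75th percentile taken over probes well above background on both. Slc14a1, Slc9a3r1 and Slc9a3r2 lay within 2-fold.

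**Figure D3:**
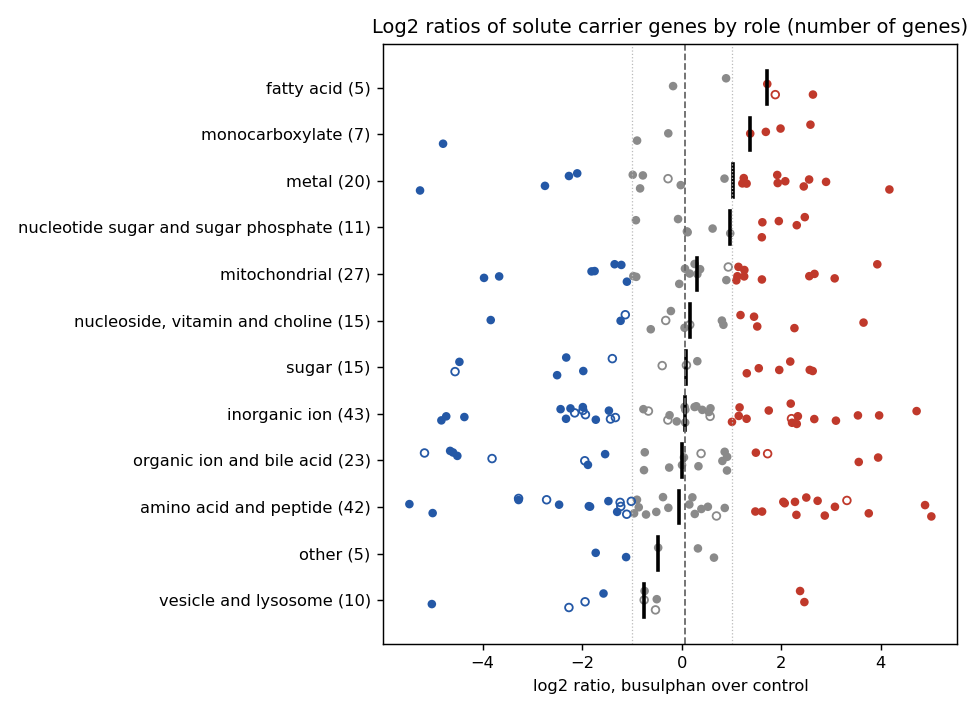
Log2 ratio (busulphan over control) of each solute carrier gene compared, by role, ordered by the group median (black bar), with the number of genes in brackets; the dashed line is the median of all 9438 genes, the dotted lines mark 2-fold, and open points are bounds. In the main setting, shown here, the metal, fatty acid and monocarboxylate medians lie past the upper 2-fold line. With spike-in scaling they lay below it, at 0.16, 0.84 and 0.49. Red and blue points stand together in 9 of the 12 roles.

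**Figure D4:**
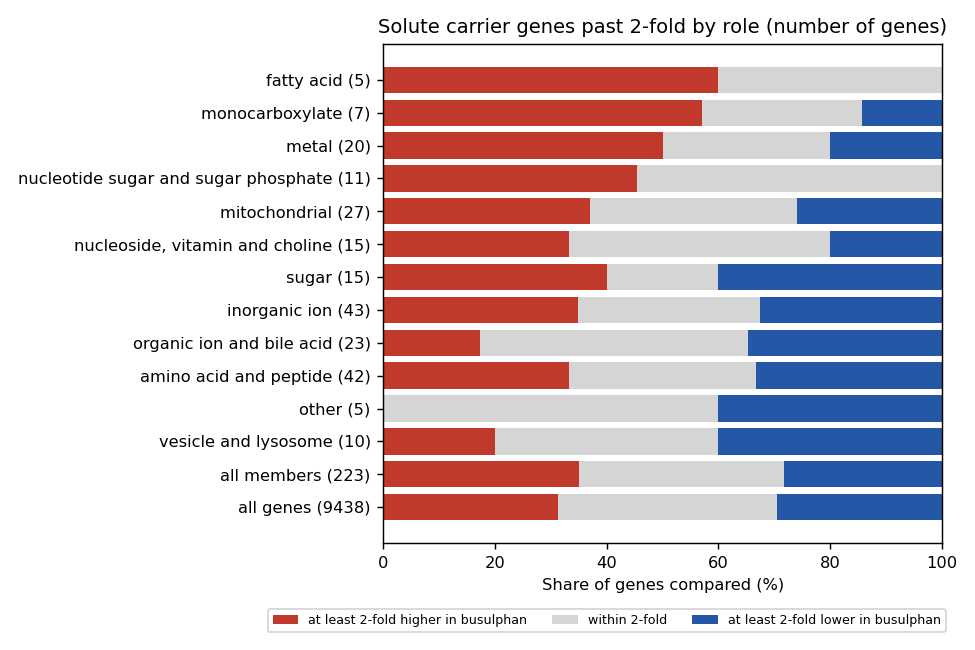
Share of genes compared (%) that were at least 2-fold higher in busulphan (red), within 2-fold (grey) or at least 2-fold lower (blue), for each role, all 223 members and all 9438 genes, with the number of genes in brackets. The bar of all members, with 34.98% higher and 28.3% lower, is close to that of all genes, with 31.3% and 29.5%.

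A list of carriers of the same superfamily under other names was looked up beside the members. Of 25, 16 were compared, of which 9 were higher and 3 lower (median 1.44). Over all genes compared, 31.3% were higher and 29.5% lower. Values of this list are given in the main scaling only, so their dependence on the scaling is not shown. The mitochondrial serine carrier Sfxn1 and its relative Sfxn3 were 7.96-fold and 14.9-fold higher, at 2193 and 4600 in busulphan against 318 and 357 in control. The Slc25 relatives Mtch1 and Mtch2 lay on opposite sides, Mtch1 at 17425 in busulphan and 4064 in control (4.95-fold higher) and Mtch2 at 2326 in busulphan and 36162 in control (13.5-fold lower). The ammonium carrier Rhcg had 225 in busulphan and 4923 in control, 19.0-fold lower. Pdzk1, a scaffold that holds carriers at the membrane, had 319 in busulphan and 32023 in control, 87.0-fold lower.

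Agreement between probes was checked for the 38 members with at least 2 probes measured on both arrays. In 29 of them all probes had the same sign, and in 9 they did not. The probes of a gene differed by a median of 0.76 on the log2 scale, more than the median software error of 0.21, and in 16 genes by at least 1. Large differences were alike in all probes of Slc34a2 (-4.46 to -4.37), Slc16a1 (2.12 to 2.68) and Slc25a4 (2.67 to 2.73). Differences between probes were widest for Slc4a8, Slc30a9 (-0.84 to 2.67), Slc11a2, Slc25a30 (0.06 to 3.09) and Slc30a1 (-0.78 to 2.23). For members with 1 probe, such as Slc16a7, Slc2a5 and Slc25a5, no such check exists.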

How the data were processed

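Total RNA of 1 busulphan and 1 control preparation was hybridised, after Cy3 labelling, to 1 Agilent array each. Per the file headers, the processed intensity values were made by Agilent Feature Extraction 11.5.1.1, which subtracts background, and probe positions are on mouse build mm9. The authors also deposited log2 values, which equalled the log2 of those intensities less a constant for each array. Column medians were -2.77 in busulphan and -2.94 in control, so genes were not centred.

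Each log2 intensity was set against its array's 75th percentile over non-control probes. Probes well above background on at least 1 array were kept, outlier spots were dropped, and a gene was read by the probe with the highest mean. With 1 array per group no test is possible, a difference is described by size, and the number of arrays limits the precision. Python 3.11.15, pandas 2.3.3 and limma 3.58.1 (normexp, offset 50) were used. The counting of calls was tested on simulated arrays that hold the software's error only, not the spread between preparations.

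The members, role lists, markers and related genes were chosen with earlier results of these data known. Named genes were a fixed list of transport genes, the 10 highest and 10 lowest ratios, the 5 highest and lowest bounds, the 3 highest and lowest of each role, the 5 brightest of each array, and members whose probes stood 2-fold apart on opposite sides. Other members named within roles were chosen after their values were seen. Slc26a8, Slco6d1 and Slc38a2 of the list were not analysed here. Current symbols came from RefSeq (GRCm38.p6), where 235 of the 248 names matched as given, 2 had been renamed and 11 did not match. The exon or UTR that a probe lies in is not stated. Some members are counted but not reported here by name.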

Additional observations from a re-analysis of the deposited data

How the results depend on the processing

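No called member turned its direction under any of the 11 other settings. For several settings this was fixed in advance. Median scaling, spike-in scaling and the 75th percentile over probes well above background on both moved called members together, by less than 2-fold. The deposited log2 values gave 78 and 63 again, since they are nearly the main scaling. Normexp background correction left 64 members higher and 38 lower, all called before (2323 and 2139 of all genes). Scaling to spike-in controls gave 49 higher and 96 lower at a member median of -0.67. It kept 49 of the 78 higher calls and all 63 lower calls. The lower calls had to be kept, since this scaling moved ratios down. At a threshold of 4-fold, 44 were higher and 32 lower. The share of all genes at 4-fold was not counted, so these counts cannot be set against the array. The other settings kept the counts within 1.5 times of 78 and 63. Medians of all genes were -0.10 with median scaling, 0.18 with quantile normalization and 0.24 with the 75th percentile taken over probes well above background on both, against 0.07. Over all genes, spike-in scaling gave 1525 higher and 4380 lower. Dim spots limit the carriers with low signals, whose ratios shrink with normexp. No paired analysis was possible because each group holds 1 sample.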
